A study of Mus musculus with 6 samples.

Results

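The myosin heavy and light chain genes of 77-5 cells were examined with and without induction of Rbfox1, a splicing factor that binds RNA. Members were the genes whose symbol is MYO, MYH or MYL followed by a number, with or without a closing letter, and whose expected counts summed to at least 60 over the 6 samples. An expected count is the RSEM estimate of the number of fragments from a transcript. Of 58870 genes in the tables, 53 had such a symbol and 31 reached the minimum, of which 20 were MYO, 6 were MYH and 5 were MYL genes. These 31 genes had 434 listed isoforms, and all 31 passed the filter on low counts used for the gene test. The member closest to the minimum was MYH7B, with 93 counts in all, and the nearest gene below it was MYH11, the smooth muscle heavy chain, with 58.

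The 77-5 line is a clone of T-REx-293, a derivative of the human embryonic kidney line HEK293 in which doxycycline switches on a gene placed behind a repressed promoter, and a minigene of mouse Ntrk2 (TrkB), made in a bacterial artificial chromosome, was added to it. There were 3 samples without doxycycline (No Dox) and 3 samples kept for 48 h with doxycycline (Dox), at 0.5 mg/ml according to both labels and methods (micrograms per ml in the figure legends). Every sample came from the same clone, with the same minigene and the same inducible Rbfox1, so the effects of doxycycline and of Rbfox1 cannot be told apart, and p-values measure the spread between these samples, which may be technical. The labels name the organism as mouse, whereas the cells and the transcripts quantified are human. Each sample held 59822964 to 65774104 expected counts, and genes varied little between replicates (common biological coefficient of variation 2.87%), so that even slight shifts could be called. RBFOX1 rose from 6.92 to 8.42 TPM in the untreated samples to between 186 and 189.8 TPM with doxycycline, where TPM is a level scaled for transcript length and for the total of the sample, and this value may hold reads of both the construct and the gene of the cells. In addition, RBFOX2, a paralog of RBFOX1, fell by 1.71 ± 0.03 (SE) and PTBP1, another splicing regulator, fell by 1.37 ± 0.02 on the log2 scale, and their part in the results on myosins was not tested. In bulk samples such as these, fewer cells that use a gene and less RNA per cell cannot be told apart.

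Myosins are motors that use ATP to move along actin filaments. Myosin II, the conventional type, has a pair of heavy chains, each with a motor and a long coiled-coil tail, and every heavy chain carries an essential and a regulatory light chain. Nonmuscle myosin II drives contraction of the cell cortex and cytokinesis, and phosphorylation of its regulatory light chain switches it on. The unconventional myosins, named MYO, carry cargo or tether membranes to actin, mostly with calmodulin as their light chain. Alternative splicing changes the motor loops, neck and tail of several of these motors. Inclusion of a neural cassette exon in the motor of MYH10 is known to be promoted by Rbfox proteins.

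To learn how the motor set of the cells changed, each gene was first tested for its summed counts. Of the 31 genes, 15 fell and 6 rose, and the other 10 were not called (edgeR quasi-likelihood test, Benjamini-Hochberg adjusted p under 0.05). Among all 18264 genes tested, 51.4% were called, with 24.9% higher and 26.5% lower in Dox. The corresponding shares of the myosin genes were 67.7%, 19.4% and 48.4%. Without a scaling factor between libraries, 31.1% of all genes were higher and 20.5% lower, and 8 myosin genes rose and 14 fell. The median log2 fold change of the myosin genes was -0.08, against 0.005 for all genes tested. Most changes were small, as 17 of the 21 called genes moved by less than 0.5 on the log2 scale and only MYO1A moved by more than 1. Small changes were not particular to the myosins, since the quartiles of the log2 fold change over all genes tested were -0.16 and 0.21. The TPM of the groups did not overlap for 20 of the 21 called genes, with MYO9A as the exception. The calls come from the same samples, so this separation adds no support to them. The share without overlap among all called genes was not computed. Of the 10 genes not called, only MYO7A had groups without overlap. Among all genes tested, called or not, the groups did not overlap for 50.2%, a share not to be set against that of called genes. The myosin genes together held 0.273% to 0.278% of all expected counts in the No Dox samples and 0.239% to 0.245% in the Dox samples.

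**Figure D1:**
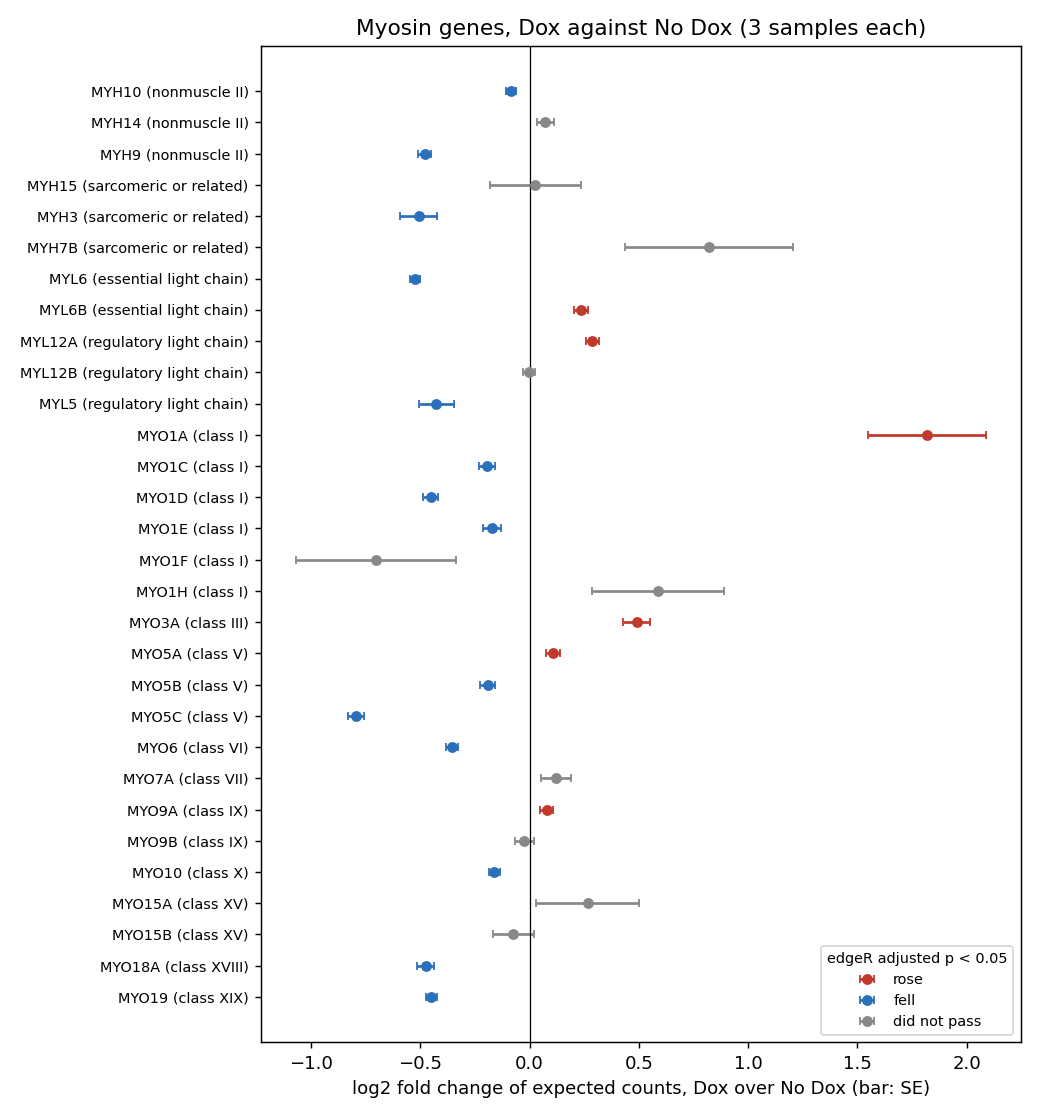
Log2 fold change of summed expected counts, Dox over No Dox, for 30 of the 31 myosin genes grouped by class, with the standard error as a bar and the result of the edgeR test as the colour. Most of the genes that passed lie to the left of 0, and MYO1A at 1.82 and MYO5C at -0.79 were the largest changes among those that passed.

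Among the heavy chain genes, MYH9 and MYH10 had the highest TPM in the No Dox samples, and MYH9 fell while MYH10 changed little. MYH9 encodes heavy chain IIA, MYH10 IIB and MYH14 IIC. MYH9 (ENSG00000100345.21) had 99.7, 104 and 99.9 TPM in the No Dox samples and 78.5, 75.0 and 72.6 TPM in the Dox samples. Every Dox sample lay below every No Dox sample, and the log2 fold change was -0.48 ± 0.03 (SE) with an adjusted p of 1.4e-09. MYH10 (ENSG00000133026.12) had 102, 105 and 101.1 TPM in No Dox and 97.6, 100.8 and 98.4 TPM in Dox. These groups lay next to each other without overlap, and the log2 fold change was -0.08 ± 0.02 (adjusted p = 0.0048). The MYH10 call was lost without a scaling factor (-0.04, adjusted p = 0.18) and in a test of log2 TPM (-0.05, adjusted p = 0.13). MYH14 (ENSG00000105357.16) was much lower, with 11.4, 11.3 and 11.4 TPM in No Dox and 12.8, 12.6 and 11.4 TPM in Dox. The groups met at the third Dox sample, and MYH14 did not pass the test (log2 fold change 0.07 ± 0.04, adjusted p = 0.15). Without Dox replicate 3 it passed, at 0.12 with an adjusted p of 0.0034, and it also passed without a scaling factor (0.12, adjusted p = 0.021).

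The make-up of the nonmuscle heavy chain transcripts differed between the groups. MYH9 held 46.8%, 47.2% and 47.0% of the summed TPM of the heavy chain genes MYH9, MYH10 and MYH14 in No Dox and 41.6%, 39.8% and 39.8% in Dox. MYH10 held 47.9%, 47.7% and 47.6% in No Dox and 51.7%, 53.5% and 53.9% in Dox. MYH14 held 5.28% ± 0.13 (SD, n = 3) in No Dox and 6.56% ± 0.28 in Dox. Thus MYH9 and MYH10 were at nearly the same TPM without doxycycline, and MYH10 was ahead with it, while its own TPM did not rise. Meanwhile, the summed TPM of MYH9, MYH10 and MYH14 went from 215.3 ± 4.3 in No Dox to 186.6 ± 3.7 in Dox. For none of these values did the groups overlap, and the exact permutation test (two-sided) gave p = 0.1 for each, the smallest p that 3 samples against 3 allow.

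Genes of the light chains that accompany these heavy chains also moved in different directions. MYL6, the main essential light chain of nonmuscle cells, was the most abundant myosin transcript. MYL6 (ENSG00000092841.18) had 934, 933 and 966 TPM in No Dox and 648, 653 and 641 TPM in Dox. Its levels were tight within each group, and it fell by 0.53 ± 0.02 (SE) on the log2 scale (adjusted p = 3.9e-11). MYL6B, a further essential light chain gene, had 109.5, 118 and 110.1 TPM in No Dox and 139, 133 and 132 TPM in Dox. All Dox samples were above all No Dox samples, with a log2 fold change of 0.24 ± 0.03 (adjusted p = 1.4e-05). Hence MYL6B took 10.7% ± 0.5 (SD, n = 3) of the essential light chain TPM in No Dox and 17.2% ± 0.4 in Dox. The ratio of MYL6 to MYL6B went from 8.41 ± 0.44 to 4.80 ± 0.13. The summed TPM of MYL6 and MYL6B went from 1057 ± 17 to 782 ± 8.

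MYL12A and MYL12B encode the regulatory light chains of nonmuscle myosin II and are near-identical, so reads can be exchanged between them. MYL12A (ENSG00000101608.12) had 90.7, 88.7 and 88.7 TPM in No Dox and 107, 114 and 117 TPM in Dox. It rose by 0.29 ± 0.03 on the log2 scale (adjusted p = 1e-06), with no overlap of the groups. MYL12B (ENSG00000118680.13) had 176, 176 and 178 TPM in No Dox and 180, 177 and 187 TPM in Dox. These ranges overlapped, and the log2 fold change was 0.00 ± 0.03 (adjusted p = 0.96). MYL12A therefore held 33.6% ± 0.4 of their summed TPM in No Dox and 38.3% ± 0.9 in Dox. MYL5, another regulatory light chain gene, fell by 0.43 ± 0.08 from a mean of 11.3 TPM (adjusted p = 0.00034). MYL9, the regulatory light chain typical of smooth muscle, had an expected count of 0 in all 6 samples, a value that allows up to 3 counts per library. The ratio of essential light chain TPM (MYL6 and MYL6B) to regulatory light chain TPM (MYL12A and MYL12B) was 3.92, 3.97 and 4.03 in No Dox and 2.74, 2.71 and 2.54 in Dox. For every share, sum and ratio of light chains given here the groups did not overlap (exact permutation p = 0.1, the smallest possible).

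**Figure D2:**
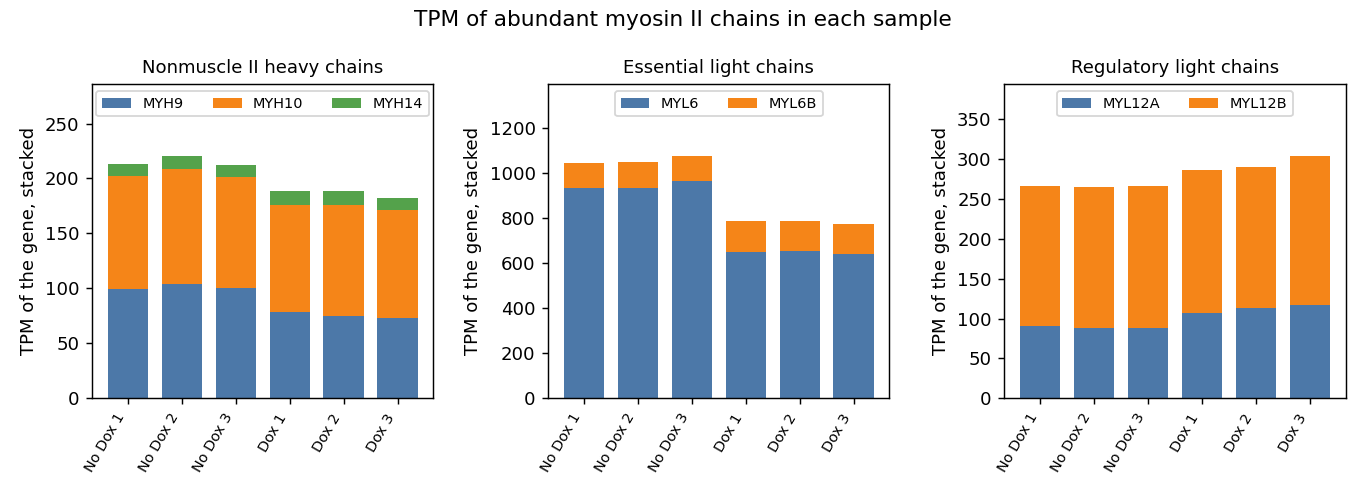
TPM of the myosin II heavy chain genes (left), essential light chain genes (middle) and regulatory light chain genes (right) in each of the 6 samples, stacked in bars that start at 0. The heavy chain sum lies between 182 and 189 in Dox and between 212 and 220.2 in No Dox, and the essential light chain sum shows the same order while the regulatory light chain sum is higher in Dox.

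Among the unconventional myosins, 4 of 20 genes rose and 10 fell. The class V myosins carry vesicles and organelles along actin, and all 3 passed the test. MYO5C, a class V motor of secretory epithelia, had 8.46, 9.18 and 8.86 TPM in No Dox and 5.44, 5.96 and 5.91 TPM in Dox. Every Dox sample was well below the No Dox samples, and the counts of MYO5C (ENSG00000128833.13) fell by 0.79 ± 0.04 on the log2 scale (adjusted p = 9.6e-11). By TPM the change was smaller, with a log2 ratio of the means of -0.61. MYO5B, which works with RAB11A on recycling endosomes, fell by 0.19 ± 0.03 (adjusted p = 0.00018). MYO5A, the motor of melanosomes and of vesicles in neurons, rose by 0.11 ± 0.03 from a mean of 14.3 TPM (adjusted p = 0.014). The MYO5A call was lost without No Dox replicate 1 (0.07, adjusted p = 0.10) and in the test of log2 TPM (0.14, adjusted p = 0.083). Within class V, MYO5A held 40.4% ± 1.8 (SD, n = 3) of the summed TPM in No Dox and 49.1% ± 0.3 in Dox, and MYO5C 25.0% ± 0.5 and 17.9% ± 0.5, without overlap (exact permutation p = 0.1 for each). The share of MYO5B overlapped between the groups (34.5% ± 2.1 and 33.1% ± 0.7, exact permutation p = 0.4).

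The class I myosins are short-tailed motors that link membranes to actin. Of 7 members 4 fell, among them MYO1C, MYO1D and MYO1E, by 0.17 to 0.45 on the log2 scale, and MYO1A rose. MYO1A is the brush border myosin of the intestine and was close to silent in these cells. MYO1A (ENSG00000166866.13) had 25, 9 and 16 expected counts in No Dox and 67, 52 and 63 in Dox. Every Dox sample was above every No Dox sample, and the log2 fold change was 1.82 ± 0.27 (adjusted p = 3.4e-05). Its mean TPM was 0.33 in No Dox and 0.92 in Dox, and on the scale of log2 (TPM + 1) the change was 0.52. MYO1F, a class I myosin of immune cells, and MYO1H had 124 and 107 counts in all and did not pass (log2 fold changes -0.70 ± 0.37 and 0.59 ± 0.30, adjusted p = 0.12 for each).

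Of the other unconventional myosins, MYO19, a motor on the mitochondrial outer membrane, fell by 0.45 ± 0.03 (adjusted p = 8.3e-10) from a mean of 87.1 TPM to 69.5 TPM. MYO6, which walks toward the minus end of actin in endocytosis, fell by 0.36 ± 0.03 (adjusted p = 3.5e-08). MYO10, the motor of filopodial tips, fell by 0.16 ± 0.03 (adjusted p = 6.7e-05). MYO9A and MYO9B are the class IX myosins. MYO9A rose by 0.08 ± 0.03 (adjusted p = 0.034), but the call was lost without No Dox replicate 1 (0.06, adjusted p = 0.17), without No Dox replicate 3 (0.07, adjusted p = 0.11), without Dox replicate 1 (0.08, adjusted p = 0.058), without Dox replicate 2 (0.09, adjusted p = 0.065), without a filter on low counts (0.06, adjusted p = 0.11) and in the test of log2 TPM (0.12, adjusted p = 0.098). MYO9B did not pass (-0.02 ± 0.04, adjusted p = 0.68). MYO3A, MYO7A and MYO15A are known from the stereocilia of hair cells. Of these, MYO3A rose by 0.49 ± 0.06 (adjusted p = 5.1e-06) from a mean of 3.03 TPM, while MYO7A (0.12 ± 0.07, adjusted p = 0.15) and MYO15A (0.27 ± 0.24, adjusted p = 0.37) did not pass. MYO7A passed without a scaling factor (0.17, adjusted p = 0.049). MYO15B was at -0.08 ± 0.09 (adjusted p = 0.54).

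MYO18A, a myosin that binds the Golgi and has a PDZ domain in its long form, gave different sizes of change by counts and by TPM. Its expected counts were 3985, 3863 and 3769 in No Dox and 3063, 2750 and 2768 in Dox, and they fell by 0.48 ± 0.04 on the log2 scale (adjusted p = 5.6e-08). In contrast, its TPM was 14.6, 15.9 and 14.9 in No Dox and 14.2, 13.5 and 13.7 in Dox, a log2 ratio of the means of -0.13. In the test of log2 TPM the change was -0.13 and did not pass (adjusted p = 0.075). The TPM-weighted mean isoform length of MYO18A was 5994 ± 179 bases (SD, n = 3) in No Dox and 4875 ± 245 bases in Dox. Longer transcripts give more fragments per molecule, but the part of isoform length in this gap was not tested.

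Sarcomeric heavy chains were nearly absent. MYH3, the embryonic skeletal muscle heavy chain, was the only one above 1 TPM. MYH3 (ENSG00000109063.15) had 372, 407 and 440 counts in No Dox and 303, 274 and 305 in Dox. The groups did not overlap, and MYH3 fell by 0.51 ± 0.08 on the log2 scale (adjusted p = 9.2e-05). MYH15 stayed between 33 and 41 counts in every sample (log2 fold change 0.03 ± 0.21, adjusted p = 0.93). MYH7B had 8, 10 and 15 counts in No Dox and 22, 26 and 12 in Dox and did not pass (0.82 ± 0.38, adjusted p = 0.086), except without Dox replicate 3 (1.11 on the log2 scale, adjusted p = 0.024). Of the 22 genes below the minimum, 4 had no count in any sample, namely MYH1, MYL2, MYL9 and the pseudogene MYL8P. The skeletal and cardiac heavy chains MYH2, MYH4, MYH6, MYH7, MYH8 and MYH13 had at most 10 counts each over all samples.

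RSEM divides the reads of a gene among its annotated isoforms, and the isoform percentage is the share of the abundance of a gene that it assigns to 1 isoform. Single isoform values are therefore model estimates, and similar isoforms can exchange reads. Of 170 myosin isoforms tested with limma-voom, 12 rose and 18 fell (17.6% in all), in 11 genes, of which 5 had isoforms moving in both directions. Among all isoforms tested, 12.6% were called, 6.19% higher and 6.44% lower in Dox. A test of isoform usage, that is, of whether an isoform departed from the change of its gene as a whole, gave a call in 8 of 24 myosin genes tested (33.3%, diffSplice), against 27.5% of all genes tested. The usage test does not hold a 5% error rate when isoforms differ in their spread. Values of every sample are therefore given below for isoforms of MYH10, MYO5A, MYO5C and MYO18A that changed by at least 10 points. MYL6, MYO1D and MYO19 had no such isoform. Among the 8 genes were MYH10, MYL6, MYO1D, MYO5A, MYO5C, MYO18A and MYO19, and all 8 had also passed the gene test. By diffSpliceDGE, 6 of the 24 genes were called, against 10% of all genes tested. These 6 were all among the 8, without MYO1D and MYO19. In 5 of the 24 genes, among them MYH10, MYO5A, MYO5C and MYO18A, an isoform past its own usage test changed by at least 10 points. Of all genes tested, 9.3% had such an isoform. Isoforms past both limits numbered 3 in MYH10, 2 in MYO5A, 2 in MYO18A and 1 in MYO5C. Thus not every isoform given below passed its own usage test.

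MYH10 showed an isoform switch while its gene level was nearly the same. Its main isoform MYH10-201 (ENST00000269243.8, 7662 bases) made up 86.7%, 87.9% and 90.0% of the gene in No Dox and 65.2%, 61.7% and 63.5% in Dox. MYH10-202 (ENST00000360416.7, 7762 bases, 100 bases longer than MYH10-201) made up 0.49%, 0.71% and 0.99% in No Dox and 14.6%, 14.6% and 15.0% in Dox. MYH10-203 (ENST00000379980.8, 7694 bases, 32 bases longer than MYH10-201) made up 1.44%, 1.06% and 1.11% in No Dox and 11.8%, 12.7% and 12.0% in Dox. Hence these longer isoforms together went from 1.93% ± 0.17 (SD, n = 3) to 26.9% ± 0.4 of MYH10. For each of these isoforms the groups were far apart compared with their spread.

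In TPM, MYH10-201 went from 90.6 ± 1.9 to 62.8 ± 0.8 and fell by 0.54 ± 0.02 (SE) on the log2 scale (limma-voom adjusted p = 2.4e-05). MYH10-202 rose by 4.33 ± 0.18 (adjusted p = 6.7e-05) and MYH10-203 by 3.28 ± 0.13 (adjusted p = 5.2e-05). All of these calls held in every alternative. A short isoform, MYH10-204 (732 bases), had 7.53% ± 0.95 in No Dox and 6.36% ± 1.26 in Dox, with overlap. Which exons set these isoforms apart was not examined, since a human annotation was not used here. The other nonmuscle heavy chains had no usage call, and MYH9-201 (ENST00000216181.10) made up 97.1% ± 0.7 of MYH9 in No Dox and 95.6% ± 1.5 in Dox.

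**Figure D3:**
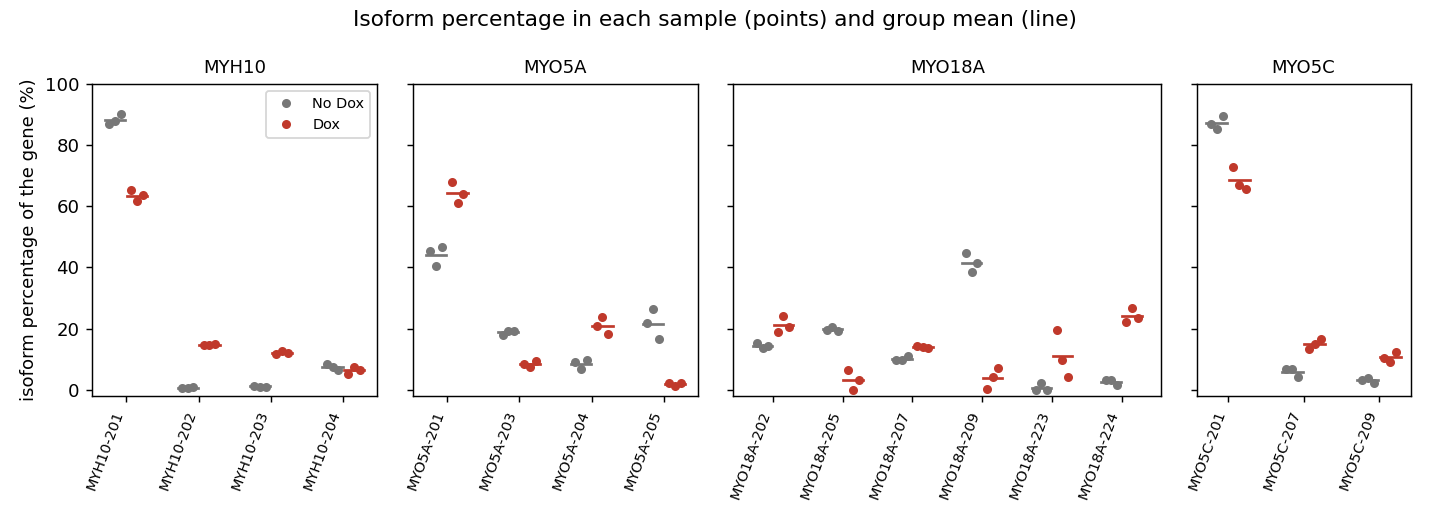
Isoform percentage of selected isoforms of MYH10, MYO5A, MYO18A and MYO5C, with a point for each sample (No Dox in grey, Dox in red) and a line at the mean of each group. MYH10-202 and MYH10-203 lie at or below 1.44% in the No Dox samples and at or above 11.8% in the Dox samples, and the points of MYO18A-223 spread from 4.35% to 19.6% within Dox.

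MYO5A changed its isoforms as well. MYO5A-201 (ENST00000356338.10, 11971 bases) made up 45.3%, 40.6% and 46.7% of the gene in No Dox and 67.8%, 61.1% and 64.1% in Dox. MYO5A-205 (ENST00000399231.7, 12225 bases, 254 bases longer) made up 21.9%, 26.4% and 16.8% in No Dox and 2.37%, 1.34% and 2.34% in Dox. The shorter of these long isoforms was thus higher in every Dox sample and the longer was lower. On the log2 scale MYO5A-201 rose by 0.68 ± 0.06 (SE, adjusted p = 0.00079) and MYO5A-205 fell by 3.29 ± 0.33 (adjusted p = 0.0016).

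Short MYO5A isoforms exchanged share too. MYO5A-204 (1758 bases) made up 9.19%, 6.89% and 9.67% in No Dox and 20.9%, 23.8% and 18.3% in Dox, and rose by 1.42 ± 0.20 (adjusted p = 0.006). MYO5A-203 (684 bases) made up 18.0%, 19.1% and 19.3% in No Dox and 8.37%, 7.55% and 9.55% in Dox, and fell by 1.00 ± 0.21 (adjusted p = 0.025). The call of MYO5A-203 was lost when any of the 6 samples was left out (adjusted p up to 0.092 over all alternatives). This call was also lost with the replicate number as a block. The counts of MYO5A-203 were 179 in No Dox and 89.7 in Dox. Together these short isoforms held 27.4% ± 1.5 in No Dox and 29.5% ± 1.7 in Dox.

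MYO18A showed the largest change of a single isoform among the myosins. MYO18A-209 (ENST00000531253.5, 7504 bases) made up 44.6%, 38.6% and 41.4% of the gene in No Dox and 0.16%, 4.32% and 7.10% in Dox. MYO18A-205 (2667 bases) made up 19.7%, 20.6% and 19.3% in No Dox and 6.47%, 0 and 3.35% in Dox. Together they went from 61.4% ± 2.6 (SD, n = 3) to 7.13% ± 3.10. MYO18A-209 fell by 4.73 ± 0.96 on the log2 scale (adjusted p = 0.023), but the call was lost without any of the No Dox replicates and without Dox replicate 2 (adjusted p up to 0.057 over all alternatives). This call was also lost with the replicate number as a block. The size of this fall also depended on single Dox samples, with a log2 fold change of -3.04 without Dox replicate 1, -5.34 without Dox replicate 2 and -5.79 without Dox replicate 3, and of -3.58 with DESeq2. MYO18A-205 did not pass (log2 fold change -4.29 ± 1.33, adjusted p = 0.09, with -5.77 to -2.17 over the alternatives), except without Dox replicate 2 (adjusted p = 0.012).

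In their place, MYO18A-224 (ENST00000636100.1, 1564 bases) made up 3.30%, 3.20% and 1.46% in No Dox and 22.2%, 26.8% and 23.6% in Dox. It rose by 3.10 ± 0.31 (adjusted p = 0.0016), and this call held in every alternative. MYO18A-223 (7501 bases) is 3 bases shorter than MYO18A-209 and made up 0, 2.31% and 0 in No Dox and 19.6%, 9.76% and 4.35% in Dox, without a call (adjusted p = 0.51). Because isoforms this similar can exchange reads, their sum was also taken, and MYO18A-209 and MYO18A-223 together went from 42.3% ± 2.0 to 15.1% ± 4.2. The longest isoform, MYO18A-202 (9992 bases), made up 15.3%, 13.6% and 14.5% in No Dox and 18.9%, 24.2% and 20.7% in Dox. It rose by 0.40 ± 0.09 (adjusted p = 0.032), a call that was lost without any of the samples except Dox replicate 1 (adjusted p up to 0.10 over all alternatives). The call of MYO18A-202 was also lost with the replicate number as a block.

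In MYO5C, the share of the main isoform was lower in Dox. MYO5C-201 (ENST00000261839.12, 6977 bases) made up 86.8%, 85.1% and 89.6% in No Dox and 72.9%, 66.8% and 65.6% in Dox, and fell by 0.97 ± 0.05 on the log2 scale (adjusted p = 0.00014). MYO5C-207 (2129 bases) made up 5.91% ± 1.56 in No Dox and 15.0% ± 1.5 in Dox. MYO5C-209 (6076 bases) made up 3.16% ± 0.82 in No Dox and 10.6% ± 1.6 in Dox. At levels below 1 TPM, MYO5C-207 did not pass (adjusted p = 0.13). MYO5C-209 rose by 1.15 ± 0.24 (adjusted p = 0.027), and this call was lost without any of the samples except No Dox replicate 2 (adjusted p up to 0.086 over all alternatives). The call of MYO5C-209 was also lost with the replicate number as a block.

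Smaller shifts that fell outside the naming rule and were picked after their values were seen occurred in MYL6 and MYO19. MYL6-206 (ENST00000547408.5, 683 bases) made up 0.16%, 0.24% and 0.20% of MYL6 in No Dox and 4.76%, 4.54% and 4.97% in Dox, which is 1.88 ± 0.39 and 30.8 ± 1.1 TPM. It rose by 4.02 ± 0.18 on the log2 scale (adjusted p = 8e-05), in a gene that fell. The main isoform MYL6-207 (655 bases) went from 74.6% ± 0.6 to 66.1% ± 0.8 and fell by 0.74 ± 0.02 (adjusted p = 2.9e-05). MYO19-213 (4054 bases) went from 36.8% ± 1.1 to 29.1% ± 0.6 and fell by 0.67 ± 0.04 (adjusted p = 0.00022). In MYL12A, which had no usage call, MYL12A-202 and MYL12A-209 have the same length of 899 bases and the same values in every sample, so the tables do not tell them apart.

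Genes that work with the myosins were then examined in 5 lists, whose counts are to be read against the 51.4% of all genes that were called (24.9% higher and 26.5% lower). Of 13 kinases that can phosphorylate the regulatory light chain, 5 rose and 1 fell (46.2% called). ROCK1, a kinase that promotes contraction, had 14.5, 14.9 and 15.3 TPM in No Dox and 9.08, 8.62 and 8.86 TPM in Dox, and fell by 0.96 ± 0.03 on the log2 scale (adjusted p = 1.2e-12). ROCK1 has a near-identical pseudogene with which reads can be exchanged. The largest rises were of MYLK3, the cardiac light chain kinase (0.95 ± 0.33, adjusted p = 0.024, with overlapping TPM), and MYLK4 (0.58 ± 0.20, adjusted p = 0.022), both with a mean TPM below 1. Of 10 genes of the myosin phosphatase, which removes the phosphate, and its inhibitors, 3 rose and 6 fell (90% called). Those that rose were PPP1CB, PPP1R12A and PPP1R12B. Those that fell were PPP1CA, PPP1CC, PPP1R12C and the inhibitors PPP1R14A, PPP1R14B and PPP1R14C. The tally therefore gives no direction for the phosphatase itself. PPP1R12B, a targeting subunit, had 4.02, 3.71 and 4.48 TPM in No Dox and 6.17, 6.66 and 5.79 TPM in Dox and rose by 0.81 ± 0.04 (adjusted p = 3.9e-11). The inhibitor PPP1R14A fell by 0.48 ± 0.09 (adjusted p = 0.00039) and the inhibitor PPP1R14B fell by 0.35 ± 0.03 (adjusted p = 2.9e-08).

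Of 6 calmodulin and dynein light chain genes, whose products unconventional myosins carry, 3 rose and 2 fell (83.3% called). CALM2, which encodes calmodulin, rose by 0.30 ± 0.02 (adjusted p = 3.3e-08) from a mean of 451 TPM, CALML4 rose by 0.32 ± 0.08 (adjusted p = 0.0021) and DYNLL2 fell by 0.17 ± 0.03 (adjusted p = 4.8e-05). Of 21 tested cargo adaptors and partners of myosins V, VI and VII, 10 rose (47.6%) and 4 fell (19.0%), and 2 of the 23 listed were too low to be tested. The largest rises were of MYRIP (0.60 ± 0.18, adjusted p = 0.012), RAB27A (0.35 ± 0.06, adjusted p = 7.9e-05) and USH1G (0.49 ± 0.14, adjusted p = 0.0097). MYRIP and RAB27A recruit class V and class VII myosins to granules, and USH1G is a partner of MYO7A in hair cells. MYRIP and USH1G had mean TPM below 1 in both groups.

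Of 4 tested chaperones and assembly partners, 1 rose and 2 fell (75% called). UNC45A, a chaperone that folds the myosin motor in nonmuscle cells, had 71.0, 71.3 and 72.4 TPM in No Dox and 40.9, 40.3 and 38.9 TPM in Dox. Its groups were far apart, and UNC45A fell by 0.99 ± 0.03 on the log2 scale (adjusted p = 3.3e-13). HSP90AA1, the general chaperone that works with UNC45A, rose by 0.39 ± 0.03 (adjusted p = 4.2e-09), and its paralog HSP90AB1 fell by 0.15 ± 0.02 (adjusted p = 6.5e-06). The median log2 fold changes of the 5 lists lay between -0.14 and 0.17, against 0.005 for all genes tested.

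**Figure D4:**
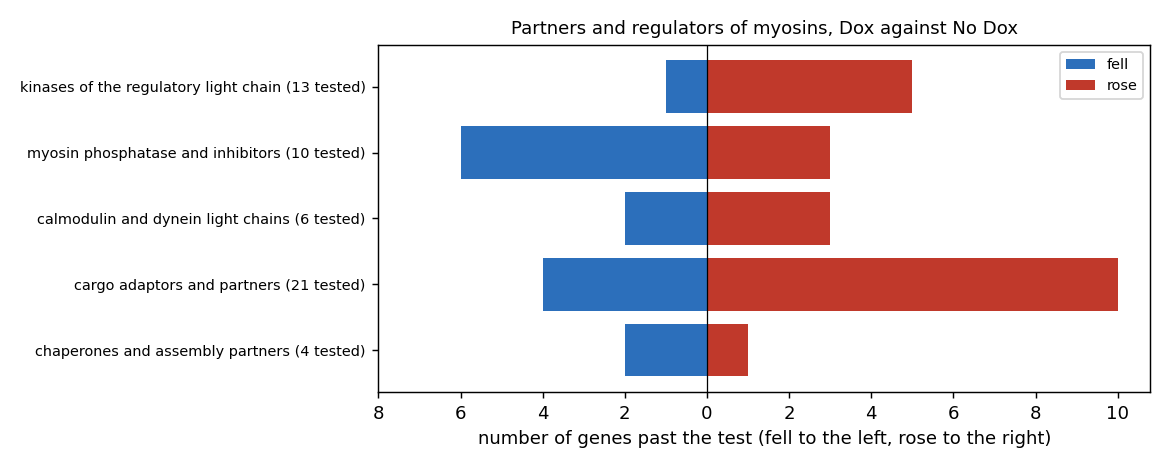
Number of genes in each of 5 lists of myosin partners and regulators that fell (to the left) or rose (to the right) in Dox by the edgeR test, with the number tested beside each list. The phosphatase list, which includes inhibitors of the phosphatase, has 6 genes that fell and 3 that rose. The adaptor list has 10 that rose and 4 that fell.

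Markers of cell types were read beside the myosins. Their calls, too, are to be read against the 51.4% of all genes that were called (24.9% higher and 26.5% lower). Of 7 genes listed for HEK293, 6 were above 1 TPM in every sample and NEFM had a mean of 0.55 TPM in No Dox and 1.15 TPM in Dox. The summed TPM of the 7 genes was 1163 to 1178 in the No Dox samples and 1045 to 1082 in the Dox samples. CDH2 and NEFM rose, VIM, NEFL, KRT8 and KRT18 fell and PAX2 was not called (85.7% called). Of 18 striated muscle markers, MYF5, MYF6 and TNNI2 were at 0 in all samples, and only TNNT1 reached 1 TPM. Only 6 of the 18 had enough counts to be tested, of which TNNT1 fell by 0.18 ± 0.06 (adjusted p = 0.021) and the other 5 were not called. The summed TPM of the striated muscle list was 19.8 to 23.7 in the No Dox samples and 20.2 to 22.1 in the Dox samples. Of 7 smooth muscle markers, 6 were tested, and ACTA2, CNN1 and LMOD1 rose and the other 3 were not called, and the summed TPM was 48.4 to 49.6 in the No Dox samples and 64.9 to 70.4 in the Dox samples. ACTA2, an actin of smooth muscle, went from 10.9 to 26.6 TPM, while MYH11, the defining heavy chain of smooth muscle, had 9, 7 and 10 counts in No Dox and 6, 11 and 15 in Dox. Of 9 neuronal markers, 5 were tested, and MAP2, SNAP25 and SYN1 rose and TUBB3 fell, and their summed TPM was 21.4 to 22.7 in the No Dox samples and 24.2 to 25.2 in the Dox samples. The part of these marker changes in the results on myosins was not tested.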

How the data were processed

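RNA-seq of 3 No Dox and 3 Dox samples of 77-5 cells was used. From stranded mRNA libraries (labels and methods), the authors trimmed reads (cutadapt), aligned them to GRCh38 (STAR) and quantified isoforms (RSEM). The sources used here give no tool versions and no strand setting for RSEM. The deposited expected counts are estimated fragments per isoform, not normalized. The deposited TPM values are scaled for length and sample total. The deposited percent values (isoform percentage) give each isoform's part of its gene's abundance.

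Expected counts were summed per gene, rounded and tested with edgeR 4.0.16 (TMM, filterByExpr, glmQLFTest). Single isoforms went into limma-voom (limma 3.58.1) and usage with diffSplice (Simes), in R 4.3.3. Tests were two-sided and fitted over all features, with Benjamini-Hochberg adjusted p under 0.05. Shares of TPM were compared with exact permutation tests. Scripts were tested on simulated data. Depth limits low genes: MYO1A, MYO1F, MYO1H and MYH7B had standard errors of 0.27 to 0.38 on the log2 scale, against 0.02 for MYH10.

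Values in every sample were given for the main nonmuscle myosin II chains, for genes past the test with an absolute log2 fold change of at least 0.5, and for isoforms of genes past the usage test that changed by at least 10 points in genes of at least 1 TPM, with further isoforms of those genes for context. In each list of partners the 3 largest changes past the test were named. Some genes that these rules name are not reported here. The members, lists and tests were chosen with earlier results of these data known. Alternatives were DESeq2 (1.42.0), DESeq2 size factors, no scaling factor, other filters, limma on log2 (TPM + 1), other usage tests, a replicate block, and each sample left out in turn. A human annotation was not used here, so neither coordinates nor sequences are given.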

Additional observations from a re-analysis of the deposited data

How the results depend on the processing

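None of the 21 called myosin genes reversed its direction in any alternative. Among genes that were not called, the log2 fold change crossed 0 for MYL12B (0.046 without a scaling factor, 0.035 by limma on log2 TPM, -0.024 to 0.012 when 1 sample was left out), MYO9B (0.024, 0.058 and -0.063 to 0.036 in the same order), MYH15 (-0.038 to 0.103 when 1 sample was left out) and MYO15B (-0.176 to 0.002 when 1 sample was left out). With DESeq2, with DESeq2 size factors and without No Dox replicate 2 each of the 31 genes kept its side of the threshold. Genes called numbered 21, and between 20 and 22 under the other scalings and without a filter, 17 by limma on log2 (TPM + 1), which lost MYH10, MYO5A, MYO9A and MYO18A, and 19 to 23 when 1 sample was left out. Isoforms called numbered 30, rose to 50 with DESeq2 and were 24 to 28 when 1 sample was left out. Genes with changed usage numbered 8, of which 5 had a change of at least 10 points, with 8 to 9 when 1 sample was left out. MYO1E was added without No Dox replicate 1 and MYH14 without No Dox replicate 3. The share of MYH10 among nonmuscle heavy chains rose by 5.31 points, by 5.74 points from counts per kilobase, and by 4.86 to 5.99 points when 1 sample was left out. Deviations of same-numbered samples from their group means correlated only weakly, at 0.04, 0.03 and 0.06. These values, from 3 samples per group, cannot show whether the replicate numbers pair the samples. With the replicate number as a block, 21 genes, 29 isoforms (25 of them among the 30) and 8 usage genes were called. Genes with few counts, such as MYO1A, MYO1F, MYO1H and MYH7B, are limited by depth.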
